A study of Mus musculus with 19 samples.

Results

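The genes that build fatty acids and triglycerides were followed in mouse liver at 3 reproductive stages. They are 34 of 51826 gene rows in the expression table, listed by name for their place in the pathway by a rule that uses no measured value, although earlier results of these data were known when the list was drawn up. Each name matched 1 row, and each of the 34 reached the minimum level set for testing. The liver came from 19 female Balb/c mice aged 12 weeks, namely 7 nulliparous mice that had borne no litter, 6 mice at lactation day 10 and 6 mice at involution day 6, when nursing had ended. The labels name no transgene or treatment for any group, the methods state that the mice came from Charles River Laboratories and The Jackson Laboratory, and the labels do not say which mouse came from which. RNA with poly(A) tails from flash frozen liver was sequenced, and the authors deposited TPM, which counts a gene's transcripts in every 1000000 of that mouse and corrects for their length. The paper used these libraries to examine genes of bile acid metabolism and FGFR4 signaling across reproductive stages. The comparisons drawn here are lactation day 10 against nulliparous, involution day 6 against lactation day 10, and involution day 6 against nulliparous.

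Liver makes fatty acids from surplus sugar. Citrate leaves the mitochondrion and is cleaved to acetyl-CoA, acetyl-CoA carboxylase turns acetyl-CoA into malonyl-CoA, fatty acid synthase joins malonyl units into palmitate, and elongases and desaturases lengthen the chain and add double bonds. The fatty acids are activated with coenzyme A and joined to glycerol-3-phosphate, and the triglyceride is stored in droplets or leaves the liver in lipoproteins. Insulin acting through SREBP-1c and glucose acting through ChREBP raise transcription of many of these genes, and liver synthesis is known to respond to feeding and to lactation.

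Promoter windows are shown first, for genes that rose in lactation. A window of 250 bases before the transcription start was taken from RefSeq on GRCm38.p6 for the 28 of 34 genes that had one, and Scd1, Scd2, Dgat1, Dgat2, Elovl3 and Fads1 had no entry. Of the 10 genes that rose at least 2-fold in lactation, 4 have a window that lies wholly before the outermost annotated start of the gene, and these are printed 5′ to 3′ on the gene's strand, with the motifs searched for in capitals. Fasn is at chr11:120805846-120824547 on the minus strand, and its window is chr11:120824548-120824797. Gpam lies on the minus strand at chr19:55067268-55127238 with a window at chr19:55127239-55127488, Pnpla3 on the plus strand at chr15:84167837-84187236 with a window at chr15:84167566-84167815, and Acly on the minus strand at chr11:100476353-100528000 with a window at chr11:100528001-100528250. In capitals are CCAAT or its complement ATTGG in Fasn, Gpam and Pnpla3, and the GC box GGGCGG or its complement CCGCCC in Pnpla3 and Acly.
Fasn: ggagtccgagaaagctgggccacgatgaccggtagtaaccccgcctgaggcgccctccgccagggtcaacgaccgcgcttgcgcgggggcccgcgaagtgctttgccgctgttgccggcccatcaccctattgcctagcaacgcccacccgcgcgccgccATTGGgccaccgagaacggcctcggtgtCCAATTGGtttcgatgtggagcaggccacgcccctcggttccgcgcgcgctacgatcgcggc
Gpam: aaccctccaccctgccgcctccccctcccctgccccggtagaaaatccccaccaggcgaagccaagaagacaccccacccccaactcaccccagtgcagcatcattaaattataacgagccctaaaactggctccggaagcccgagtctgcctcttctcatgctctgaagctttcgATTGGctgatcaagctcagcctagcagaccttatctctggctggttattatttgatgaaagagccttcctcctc
Pnpla3: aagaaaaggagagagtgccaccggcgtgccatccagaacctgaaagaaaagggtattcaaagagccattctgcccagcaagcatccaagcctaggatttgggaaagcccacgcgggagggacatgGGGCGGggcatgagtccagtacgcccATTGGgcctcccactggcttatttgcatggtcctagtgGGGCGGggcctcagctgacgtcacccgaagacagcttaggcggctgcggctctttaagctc
Acly: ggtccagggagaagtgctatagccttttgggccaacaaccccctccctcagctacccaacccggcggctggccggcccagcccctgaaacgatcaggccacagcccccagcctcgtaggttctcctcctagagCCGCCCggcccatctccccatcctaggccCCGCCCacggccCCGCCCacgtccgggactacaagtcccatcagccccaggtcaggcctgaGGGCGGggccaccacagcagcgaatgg

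Both strands were searched for 5 motifs, namely the E-box CACGTG, the CCAAT box CCAAT, the GC box GGGCGG, the TATA box TATAAA and the sterol regulatory element written as TCACNCCAC. In Fasn, a reversed CCAAT begins 90 bases before the start, and a forward and a reversed copy that share bases begin at 62 and 59 bases. Gpam has 1 reversed copy at 74 bases, and Pnpla3 has 1 at 99 bases between GC boxes at 125 and 61 bases. Distances are from the RefSeq start, which for Pnpla3 lies upstream of the annotated gene start given above. Acly has no CCAAT and has 4 GC boxes, at 117, 88, 76 and 27 bases. Over all 28 genes with a window, 18 held a CCAAT box and 18 a GC box, beside 37.5% and 35.4% of 27025 genes, where a gene with several windows counts if any holds the motif. Among the 9 genes with a window that rose at least 2-fold in lactation, 5 held CCAAT and 3 a GC box. The TATA box was in 1 of them, beside 14.3% of all genes, and the E-box and the sterol element in 0. The E-box was in 5 of the other 19 genes, beside 6.86% of all genes, and the sterol element in 1, beside 1.22%. These matches are letters in a short window and do not show binding. Only exact letters were counted, so a count of 0 in 9 genes does not show that an element is absent.

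Hepatocyte markers were high in every mouse, with albumin (Alb) from 42481 to 127179 TPM, and 11209 to 11797 genes reached 1 TPM. TPM keeps no depth, so no counting interval can be given, and the error of each value is known only from the spread between mice. Mice are named as in the labels, by stage (NUL, LAC and ID6) and by a number taken here as that of the animal, and expression split by that number. Of the 6 mice under 200, 3 were nulliparous and 3 lactating, while the 13 mice at 200 and above were 4 nulliparous, 3 lactating and every involution mouse. Of 16230 genes tested in nulliparous and lactating mice with stage in the model, 25.6% differed between the ranges of number. The ranges were compared because earlier results of these same data had shown the split, so the tests between ranges describe it and are not independent of it. No source names these ranges as a batch. For the 34 genes, values within them, or from a fit with the range as a covariate, are given beside results whose call they change. Some lactation rises that missed the threshold under 200 are instead listed where the ranges are compared. In bulk tissue, fewer cells of a type and less RNA per cell cannot be told apart.

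At lactation day 10, genes among the 34 for citrate cleavage, palmitate synthesis, fatty acid activation and the first acyl transfer onto glycerol stood above their nulliparous level. Several elongases and desaturases did not pass the test. Of the 34 genes, 19 rose and 0 fell at an adjusted p under 0.05 (limma-trend on log2(TPM + 1), Benjamini-Hochberg over all genes), beside 2.72% of all genes tested that rose and 6.49% that fell. A rise of at least 2-fold was seen in 10 of them (Acly, Aacs, Acaca, Acacb, Fasn, Thrsp, Elovl6, Scd1, Gpam and Pnpla3), beside 0.431% of all genes. Lactating mice lay wholly above the nulliparous mice for 11 genes, beside 0.98% of all genes, and below them for 0, beside 2.29%. The median difference was 0.60 on the log2 scale, beside -0.03 over all genes tested, and 29 of the 34 differences were positive. With the range of number as a covariate 22 genes rose and 3 fell (Elovl2, Elovl3 and Agpat2), where 15.7% of all genes were called. At involution day 6, 18 of the 34 genes were lower than in lactation, beside 4.73% of all genes, and 4 (Srebf1, Elovl2, Agpat2 and Dgat2) were higher, beside 18.1%. A fall of at least 2-fold was seen in 7 (Acly, Aacs, Acacb, Fasn, Thrsp, Elovl6 and Gpam), beside 0.906%, and the median was -0.54, beside 0.10. The involution mice lay wholly below the lactating mice for 9 genes, beside 2.16% of all genes, and wholly above them for 3, beside 9.3%. Both comparisons use the same 6 lactating mice, so their values are set side by side and are not independent of each other. Between involution and nulliparous mice, 4 genes differed, with a median of 0.07 beside 0.07. Srebf1, Scd1 and Dgat2 were higher, beside 3.44% of all genes, and Srebf1 and Scd1 were so by at least 2-fold, beside 0.0801%. Groups lay wholly apart for 1 gene upward, beside 1.84%, and 0 downward, beside 0.542%. Hsd17b12 was lower, beside 0.912% of all genes, by -0.32 ± 0.08 (adjusted p = 0.0308). The call of Hsd17b12 was lost among mice numbered 200 and above, with the range as a covariate, with only the 2 stages compared, and without any one of nulliparous mice NUL_1, NUL_4 and NUL_13 or involution mice ID6_201, ID6_230 and ID6_232 (-0.31 to -0.28, adjusted p = 0.056 to 0.0743). The count of 4 became 1 without any one of nulliparous mice NUL_1, NUL_4 and NUL_13, and 2 without any one of involution mice ID6_209, ID6_230 and ID6_232.

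The scaling of the libraries changed the balance of the calls. When each mouse was scaled by the median ratio of its genes, the calls over all genes changed from 441 higher and 1053 lower to 739 and 746 in lactation, from 2936 and 767 to 1312 and 1341 at involution against lactation, and from 559 and 148 to 165 of 378 higher at involution against nulliparous mice. The median over all genes at involution against lactation moved from 0.10 to -0.004. Of the 34 genes, 20 then rose and 0 fell in lactation, with a median of 0.65. At involution against lactation 1 (Agpat2) rose and 22 fell, with a median of -0.70, and against nulliparous mice, 1 (Srebf1) rose and 4 (Hsd17b12, Agpat3, Fads1 and Fads2) fell.

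**Figure D1:**
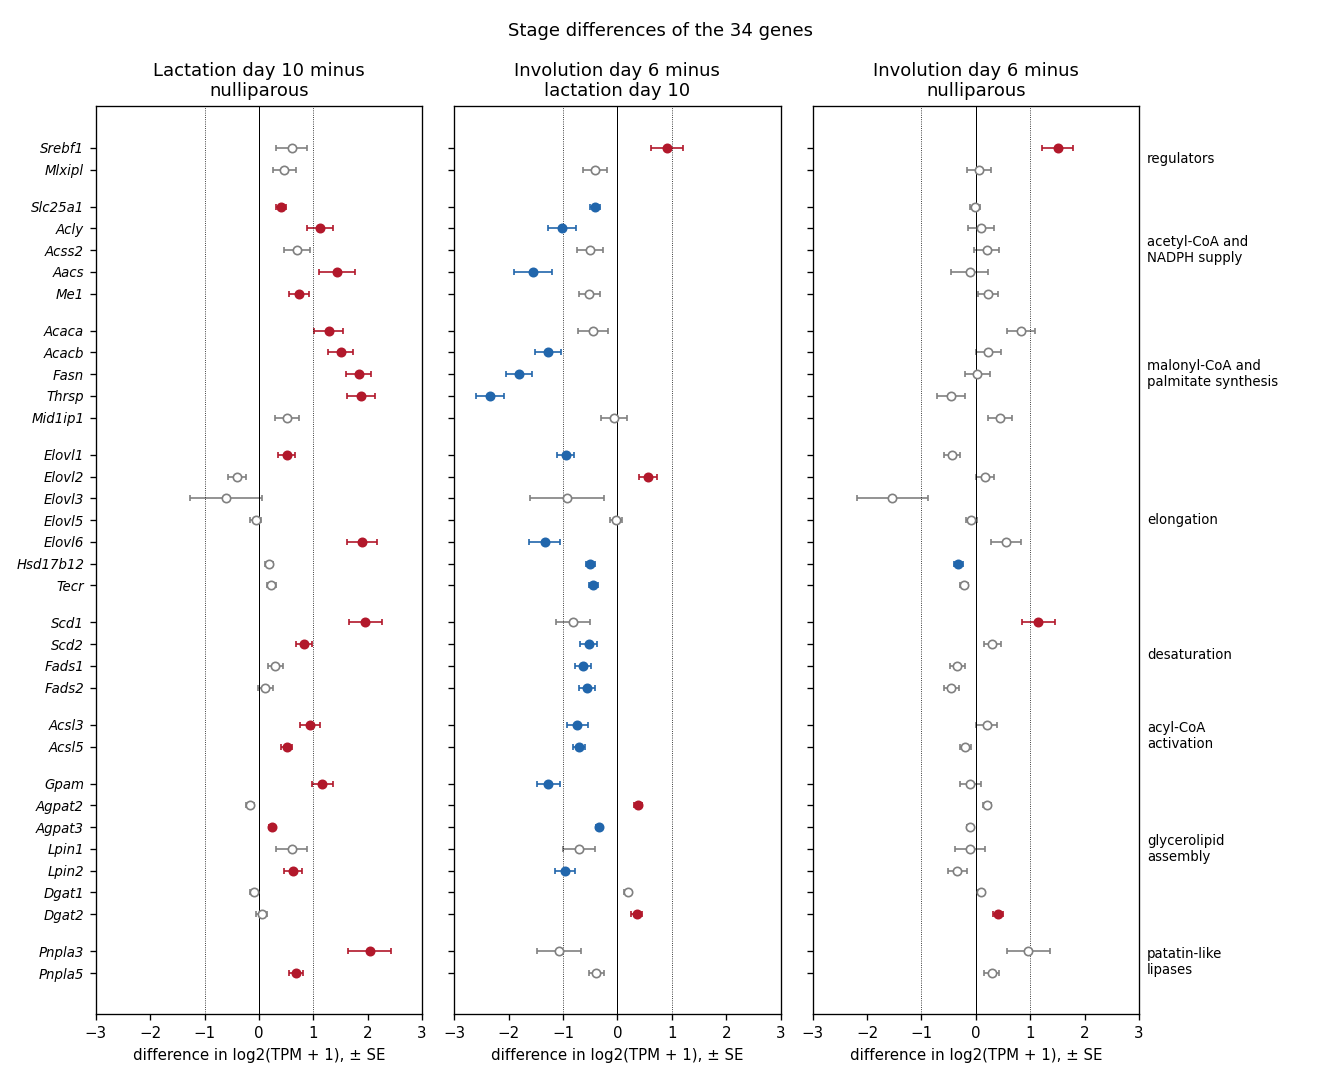
Difference in log2(TPM + 1) between stages for each of the 34 genes, grouped by role, with bars for the standard error. Filled points passed an adjusted p of 0.05 (red higher, blue lower), open points did not, and dotted lines mark a 2-fold difference. In lactation 19 genes are filled and all lie right of 0, at involution against lactation 18 lie left and 4 right, and against nulliparous mice, 4 are filled.

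In lactation neither regulator passed the test over all mice, and Srebf1 did so with the range of number as a covariate. Srebf1 encodes SREBP-1, a membrane-bound transcription factor that is cut and carried to the nucleus, a step that RNA does not measure. Its lowest, median and highest values were 52.2, 75.6 and 193 TPM in nulliparous mice, 95.05, 147 and 214 TPM in lactation and 227.4, 257.5 and 335 TPM at involution. The involution mice were all above every other mouse, while nulliparous and lactating mice overlapped. In lactation the difference was 0.60 ± 0.29 on the log2 scale (SE), with an adjusted p of 0.219. With the range as a covariate it was 0.67 (adjusted p = 0.0194), and it was 1.01 among mice under 200 (adjusted p = 0.0211) and 0.37 among those at 200 and above (adjusted p = 0.463). At involution it was 0.91 ± 0.30 above lactation (adjusted p = 0.034) and 1.51 ± 0.29 above nulliparous mice (adjusted p = 0.00865). Mice numbered 200 and above also had more Srebf1, by 0.97 ± 0.20 within stage (adjusted p = 0.00389), and all involution mice are in that range. Among those mice alone the involution difference was 0.59 ± 0.24 from lactation (adjusted p = 0.117) and 0.96 ± 0.22 from nulliparous mice (adjusted p = 0.0564). The rise over lactation also missed the threshold with the range as a covariate, where it was 0.42 (adjusted p = 0.194), with another scaling of the libraries, where it was 0.75 (adjusted p = 0.0718), without a filter on low values (adjusted p = 0.0632), and without any one of lactating mice LAC_36, LAC_102 and LAC_133 or involution mice ID6_216, ID6_230 and ID6_232, where it was 0.80 to 0.91 (adjusted p = 0.0555 to 0.0827).

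Mlxipl encodes ChREBP, which answers to glucose metabolites. It ranged over 56.4, 83.5 and 105 TPM (lowest, median and highest) in nulliparous mice, 82.2, 101 and 176 TPM in lactation and 55.9, 91.9 and 122 TPM at involution, and all 3 groups overlapped. The log2 difference in lactation was 0.46 ± 0.21 (adjusted p = 0.198), and at involution it was -0.41 ± 0.22 from lactation (adjusted p = 0.2). Mlxipl was lower at 200 and above by -0.52 ± 0.14 (adjusted p = 0.013), the opposite direction to Srebf1 in the plot of 4 genes by number.

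Of 5 genes that supply acetyl-CoA and reducing power, 4 rose in RNA in lactation and 3 fell at involution. Acly, ATP citrate lyase, cleaves citrate in the cytosol. Its values were 50.3, 84.95 and 101.9 TPM in nulliparous mice, 93.9, 178 and 291 TPM in lactation and 55.8, 84.4 and 137 TPM at involution. Only lactating mouse LAC_133, at 93.9 TPM, reached into the nulliparous range. The log2 difference was 1.12 ± 0.24 in lactation (adjusted p = 0.00615) and -1.02 ± 0.25 at involution against lactation (adjusted p = 0.00636).

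Aacs, acetoacetyl-CoA synthetase, returns ketone bodies to lipid synthesis. It ran over 7.79, 18.9 and 36.4 TPM in nulliparous mice, 31.6, 57.3 and 70.7 TPM in lactation and 9.34, 13.8 and 35.9 TPM at involution, so that only the edges of the groups met. Its differences were 1.44 ± 0.33 (adjusted p = 0.0102) and -1.55 ± 0.35 (adjusted p = 0.00334). Aacs also stood 1.03 ± 0.16 higher at 200 and above (adjusted p = 0.000685), and among those mice its differences were 1.37 (adjusted p = 0.0315) and -1.99 (adjusted p = 0.00117). The citrate carrier Slc25a1 rose by 0.41 ± 0.09 (adjusted p = 0.00769) and fell by 0.42 at involution (adjusted p = 0.00377). Malic enzyme (Me1), a source of NADPH, rose by 0.73 ± 0.18 (adjusted p = 0.0153), and its difference at involution was -0.51 (adjusted p = 0.0562). The fall of Me1 passed with the range as a covariate (-0.74, adjusted p = 0.00621), among mice numbered 200 and above (-0.89, adjusted p = 0.00815), with median-ratio scaling (adjusted p = 0.0124) and with a filter at 1 TPM (adjusted p = 0.0486). Acss2, which activates acetate, differed by 0.70 ± 0.24 in lactation with an adjusted p of 0.0693. It passed with the range as a covariate (0.73, adjusted p = 0.0321), with median-ratio scaling (adjusted p = 0.0447) and at 200 and above (1.17, adjusted p = 0.0271), and under 200 it was 0.22 (adjusted p = 0.46). At involution Acss2 fell among mice at 200 and above, by 0.95 (adjusted p = 0.0294).

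In the step from acetyl-CoA to palmitate, 4 of 5 genes rose at least 2-fold in lactation. The 5 genes of this group together held 204 to 369 TPM in nulliparous mice, 529 to 1084 TPM in lactation and 197 to 462 TPM at involution. Fasn, fatty acid synthase, had a lowest, median and highest value of 49.7, 60.8 and 92.1 TPM in nulliparous mice, 126, 248 and 321 TPM in lactation and 47.2, 60.1 and 136 TPM at involution. Every lactating mouse was above every nulliparous mouse, and at involution only mouse ID6_230, at 136 TPM, reached the lowest lactating mouse, LAC_133. The mean was 3.67 times the nulliparous mean in lactation, with a log2 difference of 1.83 ± 0.23 (adjusted p = 9.94e-05). At involution it was -1.81 ± 0.24 from lactation (adjusted p = 3.65e-05) and 0.02 ± 0.23 from nulliparous mice (adjusted p = 0.96). Among mice numbered 200 and above the first difference was 1.97, and among those under 200 it was 1.73 (adjusted p = 0.00216 and 0.0224).

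Thrsp (Spot 14), a small nuclear and cytosolic protein tied to lipogenic gene expression, had the largest fall of the 34 genes at involution. It measured 71.9, 104 and 196 TPM in nulliparous mice, 318, 418 and 682 TPM in lactation and 42.9, 88.1 and 157 TPM at involution. The lactating mice overlapped neither of the other groups. The difference was 1.88 ± 0.25 in lactation (adjusted p = 0.000163) and -2.34 ± 0.26 at involution against lactation (adjusted p = 8.06e-06), where the mean was 0.205 times that of lactation. Its paralog Mid1ip1, which promotes acetyl-CoA carboxylase assembly, differed by 0.51 ± 0.22 (adjusted p = 0.17) and -0.06 ± 0.23 (adjusted p = 0.873). In lactation it passed with the range as a covariate (0.57, adjusted p = 0.0143) and among mice under 200 (0.85, adjusted p = 0.0341), and it was 0.31 at 200 and above (adjusted p = 0.404). Of the exonic bases of Mid1ip1, 25.5% overlap a gene on the other strand, the only one of the 34 genes over 20%. No source used here states that strand was kept, so reads of such partners cannot be told apart.

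Acaca and Acacb encode the acetyl-CoA carboxylases, the cytosolic form that feeds synthesis and the form at the mitochondrion whose product restrains fatty acid oxidation. Acaca measured 9.85, 15.05 and 21.7 TPM in nulliparous mice, 21.72, 41.9 and 63.5 TPM in lactation and 16.2, 28.1 and 51.3 TPM at involution. The lowest lactating mouse lay just above the highest nulliparous mouse. Acaca rose by 1.28 ± 0.26 (adjusted p = 0.00435), while at involution it was -0.44 ± 0.27 from lactation (adjusted p = 0.256) and 0.84 ± 0.26 from nulliparous mice (adjusted p = 0.0719). The fall from lactation passed with the range as a covariate, where it was -0.78 (adjusted p = 0.0364), and was -0.77 among mice at 200 and above (adjusted p = 0.079). Acacb measured 5.89, 10.55 and 14.5 TPM in nulliparous mice, 19.6, 33.0 and 41.5 TPM in lactation and 6.75, 11.9 and 21.7 TPM at involution. Its groups were apart in lactation and overlapped at involution through mouse ID6_230. Acacb rose by 1.5 ± 0.23 (adjusted p = 0.000455) and fell by 1.27 ± 0.24 at involution (adjusted p = 0.000853). Whether the 2 carboxylases differed from each other in the size of the change was not tested.

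**Figure D2:**
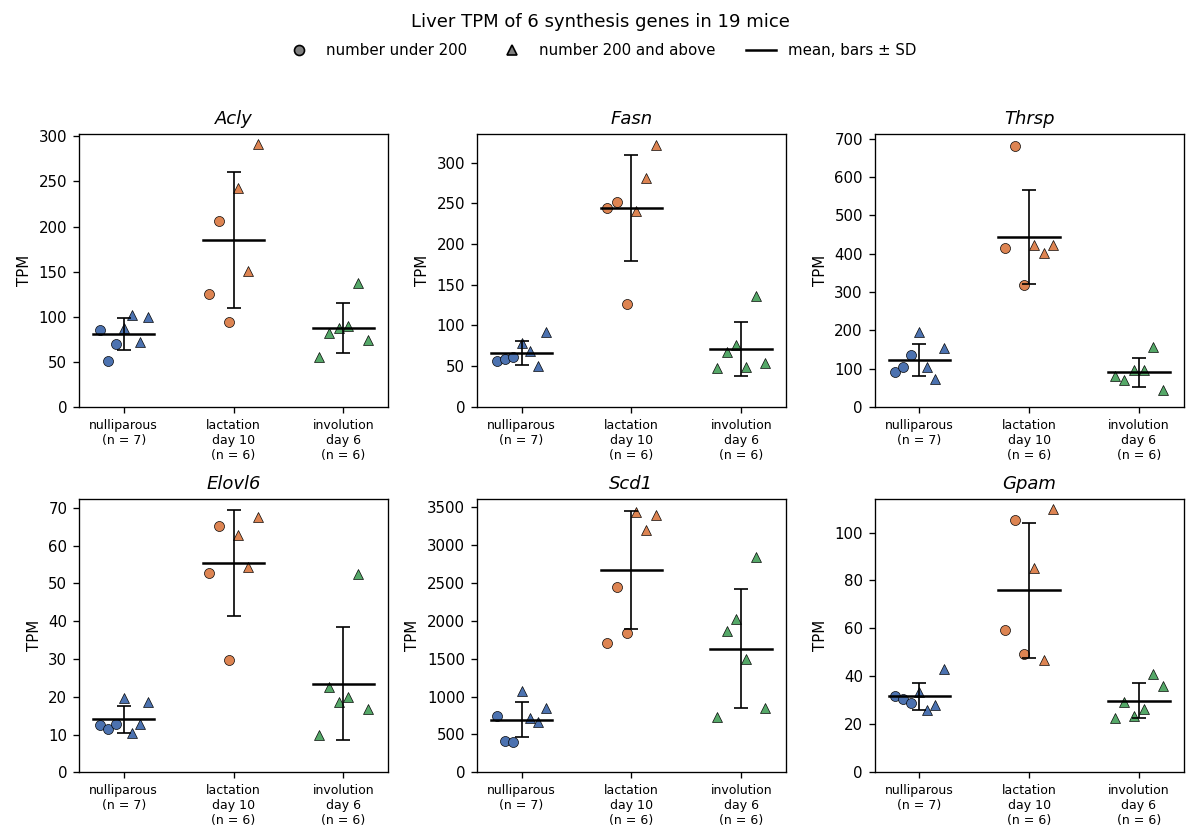
TPM of Acly, Fasn, Thrsp, Elovl6, Scd1 and Gpam in each of the 19 mice by stage, with the mean and SD. Circles are mice numbered under 200 and triangles mice numbered 200 and above. The lactating group has the highest mean in each panel, and involution mouse ID6_230 stands above the other involution mice for Fasn (136 TPM) and Elovl6 (52.6 TPM).

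Elongation was uneven. Elovl6, which extends palmitate to stearate, rose with Fasn while the elongases of polyunsaturated and very long chains did not share one direction. Elovl6 measured 10.5, 12.7 and 19.6 TPM in nulliparous mice, 29.65, 58.55 and 67.5 TPM in lactation and 9.80, 19.3 and 52.6 TPM at involution. Lactating mice were all above nulliparous mice, and 1 involution mouse, ID6_230, lay within the lactating range. The difference was 1.89 ± 0.27 (adjusted p = 0.000247) and -1.34 ± 0.28 (adjusted p = 0.00196). Elovl1 rose by 0.51 ± 0.15 (adjusted p = 0.0414) and fell by 0.95 ± 0.16 (adjusted p = 0.000269). The rise of Elovl1 missed the threshold without a filter (adjusted p = 0.0704), with only the 2 stages compared (adjusted p = 0.102), among mice under 200 (0.45, adjusted p = 0.141) and without any one of nulliparous mice NUL_4, NUL_220, NUL_221, NUL_226 and NUL_227 or lactating mice LAC_36, LAC_102 and LAC_133, where it was 0.44 to 0.50 (adjusted p = 0.0567 to 0.102). Elovl2, which acts on polyunsaturated chains, was -0.40 ± 0.16 in lactation (adjusted p = 0.142), a fall that passed with the range as a covariate (-0.36, adjusted p = 0.015), and 0.56 ± 0.17 higher at involution than in lactation (adjusted p = 0.0231). Among mice numbered 200 and above that rise was 0.30 with an adjusted p of 0.124, and it also missed the threshold with the range as a covariate (0.27, adjusted p = 0.104), with the other scaling (0.40, adjusted p = 0.0686) and without any one of lactating mice LAC_36, LAC_102 and LAC_133 or involution mice ID6_209 and ID6_232 (0.50 to 0.53, adjusted p = 0.0511 to 0.0578). Elovl5, at 302 to 316 TPM in the stage means, differed by -0.06 and -0.02. The other enzymes of the elongation cycle, Hsd17b12 and Tecr, were 0.18 and 0.23 in lactation (adjusted p = 0.167 and 0.08) and fell by 0.50 and 0.45 at involution (adjusted p = 0.000235 and 0.000683), with no overlap between the groups.

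Elovl3, an elongase of long saturated chains, split by the number of the mouse. It measured 9.11, 9.13 and 15.1 TPM in the 3 nulliparous mice numbered under 200 and 2.20, 2.65 and 3.14 TPM in the 3 lactating mice numbered under 200. In the 13 mice numbered 200 and above it was listed between 0 and 0.10 TPM. The difference between ranges was -2.73 ± 0.26 (adjusted p = 9.82e-06), the widest of the 34 genes. Under 200, lactating mice were lower by -1.70 ± 0.21 (adjusted p = 0.0161), and at 200 and above its mean was under the filter, so no difference was tested there. The lactation difference itself differed between the ranges by 1.67 ± 0.22 (adjusted p = 0.0187), a test that 1 of the 34 genes passed, beside 0.111% of all genes. Pooled over ranges the differences were -0.61 ± 0.66 in lactation and -0.92 ± 0.68 at involution, neither past the test. With the range as a covariate the lactation fall passed, at -0.81 (adjusted p = 0.0157).

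**Figure D3:**
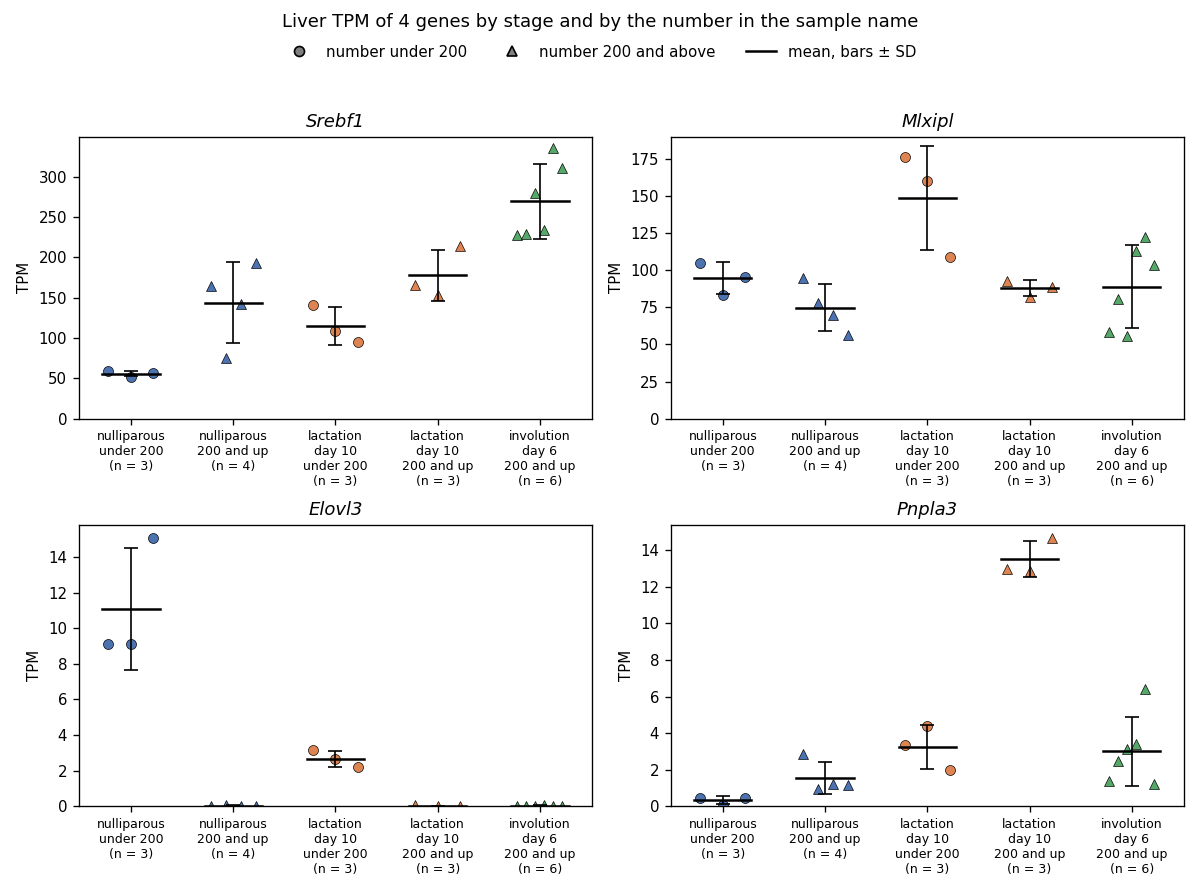
TPM of Srebf1, Mlxipl, Elovl3 and Pnpla3 in each mouse, split by stage and by the number in the sample name, with mean and SD. Elovl3 is at or near 0 TPM in all mice numbered 200 and above, Pnpla3 and Srebf1 are higher there, and Mlxipl is lower.

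Over the 34 genes, 17 differed between the ranges, 13 higher and 4 lower (Mlxipl, Elovl1, Elovl3 and Hsd17b12) at 200 and above, beside 16.5% of all genes higher and 9.11% lower. The lactation rise was seen in both ranges. Among mice numbered 200 and above 19 genes rose and 0 fell, beside 7.13% of all genes called there, and among those under 200, 12 rose and Elovl3 fell, beside 4.29%. The medians were 0.69 and 0.54. Under 200, several rises called over all mice missed the threshold in limma-trend. They were Acly (adjusted p = 0.109), Acacb (0.0515), Gpam (0.0582), Slc25a1 (0.115), Acsl5 (0.0944), Agpat3 (0.104) and Pnpla5 (0.0563). Their differences there were all positive, from 0.24 for Agpat3 to 1.39 for Acacb. Elovl1 and Lpin2 also missed it. At involution against lactation, 23 genes fell and 1 rose among mice numbered 200 and above, beside 14.1%. At 200 and above, 0 of 33 genes tested differed between involution and nulliparous mice in limma-trend at an adjusted p of 0.05, beside 0.797% of all genes. Stage and range cannot be told apart where involution mice are set against mice numbered under 200.

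Of the desaturase genes, Scd1, stearoyl-CoA desaturase, which makes oleate and palmitoleate, had the highest mean TPM. Scd1 alone held 11.8% to 22.9% of the summed TPM of the 34 genes in nulliparous mice, 28.8% to 41.5% in lactation and 20.2% to 40.2% at involution. Its values were 404, 723 and 1069 TPM in nulliparous mice, 1709, 2816 and 3442 TPM in lactation and 723, 1681 and 2842 TPM at involution. The lactating mice lay above all nulliparous mice, and the involution mice spread over both. Scd1 rose by 1.96 ± 0.30 (adjusted p = 0.000465), and at involution it was -0.81 ± 0.31 from lactation (adjusted p = 0.0702). It was 1.15 ± 0.30 higher at involution than in nulliparous mice (adjusted p = 0.0397), and among mice numbered 200 and above that difference was 0.84 (adjusted p = 0.285), while the fall from lactation was there -1.19 (adjusted p = 0.0341). That fall also passed with the range as a covariate (-1.18, adjusted p = 0.00929) and with median-ratio scaling (-0.97, adjusted p = 0.0316). The rise over nulliparous mice missed the threshold in 5 of 9 other settings and without any one of nulliparous mice NUL_1, NUL_4 and NUL_13 or involution mice ID6_209, ID6_216, ID6_218 and ID6_230, where it was 0.96 to 1.17 (adjusted p = 0.0617 to 0.093).

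Scd2, the form of brain and skin, stayed under 6 TPM and rose by 0.83 ± 0.15 in lactation (adjusted p = 0.00208). At involution Scd2 fell by 0.53 ± 0.16 (adjusted p = 0.0231). The Scd genes are close copies, and reads that fit several of them were shared out by estimate, so the low Scd2 value beside an abundant Scd1 is uncertain. Fads1 and Fads2, the desaturases of polyunsaturated chains, differed by 0.30 and 0.11 in lactation (adjusted p = 0.195 and 0.683). At involution they fell by 0.64 ± 0.14 (adjusted p = 0.00349) and 0.56 ± 0.15 (adjusted p = 0.00976). Against nulliparous mice, Fads2 was lower at involution with the range as a covariate (-0.57, adjusted p = 0.0426) and with median-ratio scaling (-0.56, adjusted p = 0.0223). Acsl3 and Acsl5, which activate fatty acids with coenzyme A, rose by 0.93 ± 0.18 (adjusted p = 0.00342) and 0.51 ± 0.10 (adjusted p = 0.00349). Both fell at involution, by 0.74 and 0.70 (adjusted p = 0.00953 and 0.000107), with no overlap between involution and lactating mice.

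In glycerolipid assembly Gpam of the first step rose in lactation and Dgat2 of the last did not pass the test. Their difference from each other was not tested. Gpam, the mitochondrial acyltransferase that starts triglyceride synthesis, measured 26.0, 30.5 and 43.2 TPM in nulliparous mice, 46.7, 72.3 and 110 TPM in lactation and 22.6, 27.9 and 41.1 TPM at involution. The lactating mice overlapped with neither group. Gpam rose by 1.17 ± 0.20 (adjusted p = 0.00105) and fell by 1.27 ± 0.21 (adjusted p = 0.000225). Dgat2, which completes the triglyceride, was the more abundant acyltransferase of the last step, at 202, 249 and 333 TPM in nulliparous mice, 246, 267 and 308 TPM in lactation and 312, 346 and 372 TPM at involution. Its lactation difference was 0.05 ± 0.10 (adjusted p = 0.811), and the involution mice were all above the lactating mice, by 0.36 ± 0.10 (adjusted p = 0.0177), and 0.41 ± 0.10 above nulliparous mice (adjusted p = 0.0297). Among mice numbered 200 and above these were 0.31 (adjusted p = 0.104) and 0.29 (adjusted p = 0.285). The rise over lactation missed the threshold also with the range as a covariate (0.26, adjusted p = 0.0932) and with the other scaling (0.19, adjusted p = 0.177). The rise over nulliparous mice missed it in 4 of 9 other settings and without any one of nulliparous mice NUL_1, NUL_4 and NUL_13 or involution mice ID6_201, ID6_209, ID6_230 and ID6_232 (0.35 to 0.41, adjusted p = 0.052 to 0.0672).

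The steps between showed mixed directions. Agpat2, which adds the second acyl chain and whose loss causes lipodystrophy, was -0.17 ± 0.07 in lactation (adjusted p = 0.151, and 0.0498 with the range as a covariate) and rose by 0.38 ± 0.07 at involution (adjusted p = 0.000989; 0.22, adjusted p = 0.0335, with median-ratio scaling), from 146 to 197 TPM up to 217 to 239 TPM. Agpat3 moved the other way, with 145 to 159 TPM in nulliparous mice, 169 to 187 TPM in lactation and 130 to 154 TPM at involution. Its rise of 0.24 ± 0.05 (adjusted p = 0.00275) and fall of 0.34 ± 0.05 (adjusted p = 5.08e-05) left no overlap around the lactating group. Lpin2, a phosphatidate phosphatase, rose by 0.63 ± 0.17 (adjusted p = 0.0269) and fell by 0.96 ± 0.18 (adjusted p = 0.000725). The rise of Lpin2 missed the threshold at 200 and above (0.49, adjusted p = 0.174), under 200 (0.74, adjusted p = 0.108), with only the 2 stages compared (adjusted p = 0.0746) and without any one of nulliparous mice NUL_220 and NUL_221 or lactating mice LAC_36, LAC_102 and LAC_240, where it was 0.50 to 0.61 (adjusted p = 0.051 to 0.0689). Lpin1 ran from 4.49 to 21.4 TPM in lactation and from 3.24 to 7.72 TPM in nulliparous mice, with a difference of 0.60 ± 0.28 (adjusted p = 0.198). Dgat1 differed by -0.10 and 0.19 (adjusted p = 0.399 and 0.0522), and the second passed with a filter at 1 TPM (adjusted p = 0.0466).

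Pnpla3 is a lipase-like protein of the lipid droplet, and its human form is known for an association with fatty liver. It measured 0.09, 0.93 and 2.88 TPM in nulliparous mice, 2.01, 8.64 and 14.7 TPM in lactation and 1.25, 2.82 and 6.40 TPM at involution. The groups overlapped, and in lactation the 3 mice numbered 200 and above stood at 12.9 to 14.7 TPM and the 3 under 200 at 2.01 to 4.39 TPM. Pnpla3 rose by 2.04 ± 0.39 (adjusted p = 0.00287), the largest log2(TPM + 1) difference of the 34 genes in lactation, and was -1.07 ± 0.41 at involution (adjusted p = 0.066). Within the ranges the lactation difference was 2.56 at 200 and above (adjusted p = 0.000934) and 1.64 under 200 (adjusted p = 0.0223). At 200 and above the fall at involution was -1.97 (adjusted p = 0.00109), and it also passed with the range as a covariate (-1.73, adjusted p = 0.000503) and with median-ratio scaling (-1.19, adjusted p = 0.0486). The size of the lactation rise depends on the pseudocount, at 2.41 with 0.5 and 2.95 with 0.1. Pnpla5 stayed under 1.4 TPM, the only member with a mean under 1 TPM, and rose by 0.68 ± 0.14 (adjusted p = 0.00374), a scale that understates the change of such low values, since it was 1.08 with a pseudocount of 0.5 and 2.36 with 0.1. At involution Pnpla5 fell with the range as a covariate (-0.55, adjusted p = 0.00696), at 200 and above (-0.69, adjusted p = 0.00483) and with median-ratio scaling (-0.44, adjusted p = 0.0406).

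**Figure D4:**
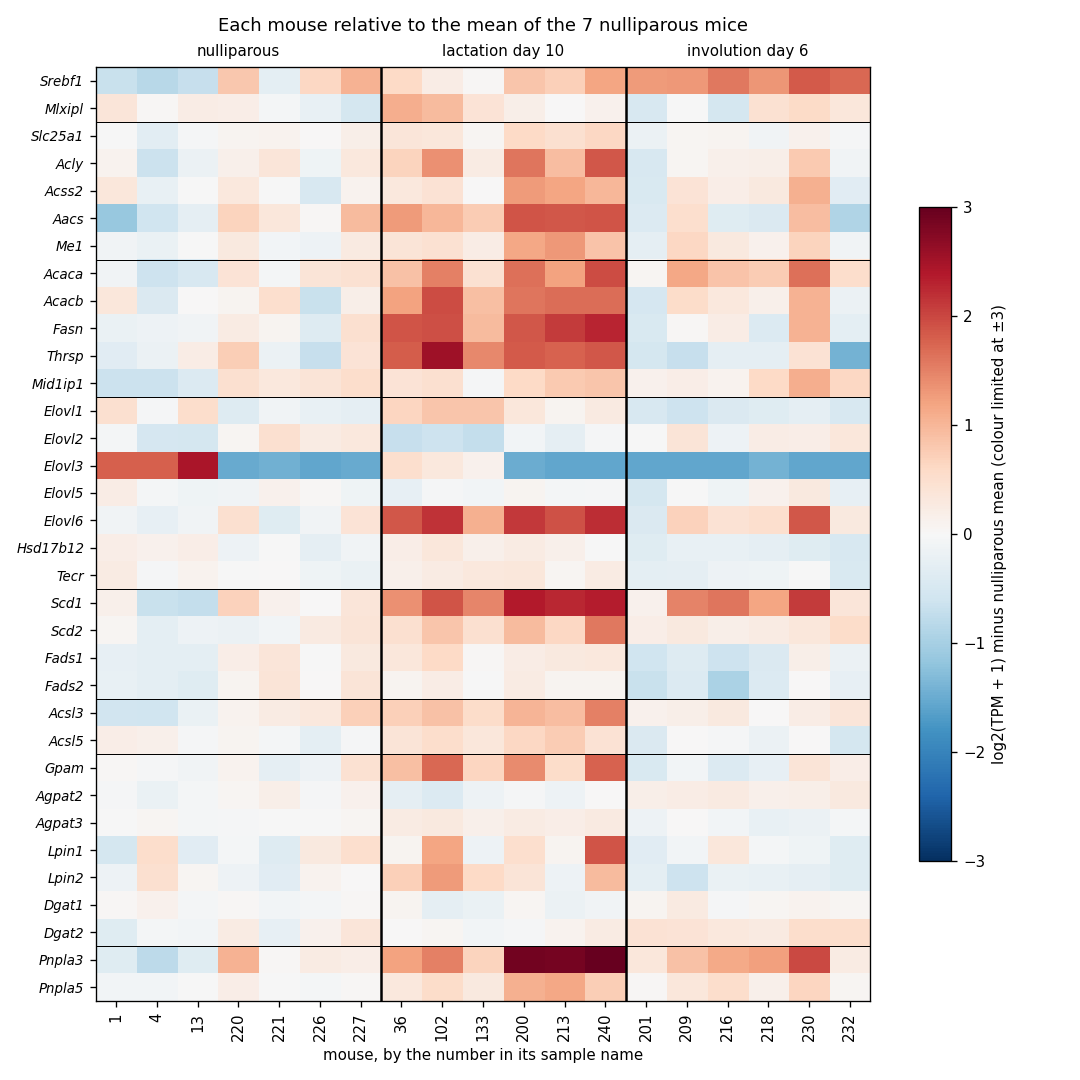
Each mouse's log2(TPM + 1) minus the mean of the 7 nulliparous mice, for the 34 genes in rows and the 19 mice in columns, with red above and blue below that mean. Lactating mouse LAC_133 is the lowest lactating mouse in 23 of the 34 genes, and involution mouse ID6_230 is the highest involution mouse in 23.

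Mice of one stage differed across the pathway as a whole. The summed TPM of the 34 genes was 3319 to 4674 in nulliparous mice, 5530 to 8392 in lactation and 3589 to 7073 at involution, with means of 4003 ± 529, 7193 ± 1209 and 5021 ± 1196 (SD). Lactating mouse LAC_133 was the lowest of its group in 23 of 34 genes and mouse LAC_240 the highest in 15. At involution, mouse ID6_230 was the highest in 23 and mouse ID6_201 the lowest in 14. With each mouse left out in turn, 17 to 20 genes passed the test in lactation, beside 6.52% to 9.72% of all genes. At involution against lactation 20 to 26 passed, beside 17.5% to 23.3%.

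Other genes of the pathway were read from lists of regulators, further synthesis enzymes and enzymes that feed carbon or NADPH. Each list stands beside all genes tested, of which 2.72% rose and 6.49% fell in lactation. At involution against lactation these shares were 18.1% and 4.73%. Of 12 other regulators, 2 rose and 2 fell in lactation, and 4 rose and 2 fell at involution. Insig1, which holds SREBP in the endoplasmic reticulum and is itself an SREBP target, measured 101, 136 and 272 TPM in nulliparous mice, 206, 289 and 524 TPM in lactation and 35.9, 109 and 156 TPM at involution. It rose by 1.0 ± 0.29 (adjusted p = 0.0337) and fell by 1.65 ± 0.30 (adjusted p = 0.000584), and the involution mice were all below the lactating mice. Of 23 further synthesis genes tested, 2 rose and 0 fell in lactation, and 1 rose and 6 fell at involution. Among other activation genes, Acsl1 ran from 214 to 319 TPM in nulliparous mice and from 217 to 368 TPM in lactation. Acsl4 ran from 7.71 to 18.1 TPM and from 16.5 to 33.7 TPM. For the first acyl transfer onto glycerol, Gpat4 ran from 29.4 to 39.9 TPM in nulliparous mice and from 27.6 to 36.2 TPM in lactation. Gpat3 ran from 6.04 to 12.0 TPM and from 3.12 to 10.3 TPM. Fads6, a predicted desaturase, rose by 0.99 ± 0.15 (adjusted p = 0.000388) and fell by 1.05 ± 0.15 (adjusted p = 8.71e-05), and Mogat1, which acylates monoacylglycerol, fell by 1.34 ± 0.47 at involution (adjusted p = 0.0446). Mogat1 was at 5.43 to 6.53 TPM in the lactating mice under 200 and at 0.53 to 1.6 TPM in those at 200 and above, beside 0 to 1.21 TPM in the involution mice, which overlap the latter. Of 14 genes that feed carbon or NADPH, 2 rose in lactation and 0 fell, and 1 rose and 3 fell at involution. G6pdx, the entry to the pentose phosphate pathway, rose by 1.16 ± 0.32 in lactation (adjusted p = 0.0294), from 1.85 to 5.99 TPM up to 3.78 to 21.4 TPM. The lactating mice under 200 held 3.78 to 5.72 TPM of G6pdx, within reach of the nulliparous mice, and those at 200 and above 13.55 to 21.4 TPM.

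Some markers of other cell types differed between stages. All 7 Kupffer cell and leukocyte markers were higher at involution than in lactation, beside 11073 of 16230 genes tested. Past the test were 6 of them, beside 18.1% of all genes. The markers were not fitted with median-ratio scaling, which lowered the number of genes called higher in this comparison. Their summed TPM was 103 to 203 in nulliparous mice, 73.5 to 148 in lactation and 212 to 285 at involution. Ptprc, Adgre1, Clec4f, Cd68 and Csf1r fell in lactation, beside 6.49% of all genes. Also lower in lactation were Spp1 of 5 cholangiocyte markers, Clec4g of 5 sinusoidal endothelial markers, and Reln and Dcn of 5 stellate cell markers. The share of all genes that fell was 6.49%. At involution against lactation Spp1, Dcn and the endothelial Clec4g, Pecam1 and Kdr rose, as did Cd3e of the leukocyte list, beside 18.1%. The other cholangiocyte, endothelial and stellate cell markers did not pass in the comparison concerned. Albumin was 1.81 times as high in lactation as in nulliparous mice (log2 difference 0.86 ± 0.15, adjusted p = 0.00137), and the top 10 genes by level took 25.7% to 28.8% of TPM outside lactation and 29.0% to 31.2% in lactation. Of the 8 hepatocyte markers only Alb passed in lactation, beside 2.72% of all genes that rose. Their differences were positive in 4 and negative in 4, with a median of 0.05. Alb fell and Ttr and Fgb rose at involution. Ttr was at 3061 to 3451 TPM in the lactating mice under 200 and at 7338 to 7868 TPM in those at 200 and above. The involution mice held 7567 to 8592 TPM of Ttr and overlap the latter. Adipocyte markers, whose source tissue also makes fatty acids, summed to 15.8 to 44.8 TPM in nulliparous mice, 18.3 to 31.0 TPM in lactation and 17.5 to 49.4 TPM at involution. None of the 7 adipocyte markers tested passed in lactation, where 2 had an unadjusted p under 0.05, Lipe fell at involution, and Lep was at most 0.04 TPM. Lipe was at 7.52 to 8.05 TPM in the lactating mice under 200 and at 4.21 to 6.58 TPM in those at 200 and above. The involution mice held 2.99 to 4.46 TPM of Lipe and overlap the latter. Mammary markers summed to 0.07 TPM or less outside the lactating group, and Lalba was listed at 0 in every mouse. Lactating mouse LAC_102 held 19.05 TPM of mammary markers, of which Wap made up 8.73 TPM and Csn2 4.53 TPM. Without that mouse 17 of the 34 genes rose in lactation, beside 342 of 16221 genes tested. The part of these cell types in the members' differences was not tested.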

How the data were processed

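The methods state that mRNA from flash frozen murine liver was enriched with oligo(dT) beads, made into NEBNext Ultra libraries, sequenced in pairs on a NovaSeq6000, aligned to GRCm38 and quantified by RSEM (version 1.3.1, per the submitters' processing notes) with an Ensembl annotation. The authors deposited TPM per gene and mouse, with 2 decimals and a sum of 1000000 in each mouse, so depth is unknown. RSEM shares reads among similar genes by estimate. The authors tested counts with DESeq2, a model of counts that TPM cannot enter, so it was left out here.

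All 19 columns were matched to the mice by name, and 0 pairs of mice had identical values. Each mouse counted as 1 sample. The 16230 of 51826 genes whose mean reached 0.1 TPM were tested on log2(TPM + 1) with limma-trend (limma 3.58.1, R 4.3.3), fitting a mean for each stage to the 19 mice and adjusting p over the tested genes by Benjamini-Hochberg. Errors are standard errors unless SD is written, and ± gives that error. A gene rose or fell at an adjusted p under 0.05. Range effects and the difference of the lactation response between ranges were fitted on nulliparous and lactating mice. The method was tested on simulated data. Values were given for genes past the test and 2-fold in any comparison and for Srebf1, Mlxipl, Acly, Acaca, Fasn, Scd1, Gpam and Dgat2, and more briefly for the others. From the lists of other pathway genes, at most 8 past the test and 2-fold were named, and from the marker lists those past the test. The members, gene lists and tests were chosen with earlier results of these data known. Gene positions are from GENCODE M21 (GRCm38), with all 34 genes matched, and motifs were counted in Python 3.11.15. Other settings tried were a pseudocount of 0.1 or 0.5, no filter or one at 1 TPM, median-ratio scaling, robust moderation, the range entered as a covariate, the 13 mice from 200 upward alone, only the 2 stages compared, and each mouse left out.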

Additional observations from a re-analysis of the deposited data

Results flagged for a closer look

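In each stage, the highest and the lowest mouse were compared with the nearest other mouse by Dixon's criterion for every gene, and over 34 genes in 3 stages 8 groups had a mouse past the 95% limit. The limit is set to pass about 1 in 20 groups of independent, normally distributed values. Here TPM were compared without a log, and the values of a mouse across genes are not independent. Every flagged mouse was the highest of its group, so that rate need not hold for these groups. At involution, mouse ID6_230 was far above the others in Fasn (135.8 TPM, next 75.9 TPM) and Elovl6 (52.58 TPM, next 22.69 TPM), and mouse ID6_216 in Lpin1 (6.68 TPM, next 4.79 TPM). Elovl3 was listed at 0.1 TPM in involution mouse ID6_218 and at 0 in the other involution mice. In lactation, mouse LAC_102 was high in Thrsp (681.7 TPM, next 422.8 TPM), the mouse that also held the mammary markers, and mouse LAC_240 in Scd2 (5.98 TPM, next 3.53 TPM). Nulliparous mouse NUL_220 was high in Pnpla3 (2.88 TPM, next 1.25 TPM) and Pnpla5 (0.2 TPM, next 0.08 TPM).

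The lactation difference of Elovl3 was 1.67 on the log2 scale higher at 200 and above than under 200, by a test of that difference (adjusted p = 0.0187, limma-trend). The value rests on the 6 mice numbered under 200, since Elovl3 was at or near 0 in both stages at 200 and above. Acss2, Me1, Acsl5, Pnpla3, Pnpla5, Fads1, Fads2 and Mid1ip1 reached an unadjusted p under 0.05 in the same test and missed the adjusted threshold, with 13.3% of all genes reaching an unadjusted p under 0.05.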

How the results depend on the processing

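No paired analysis was possible because the stages share no replicate numbers. Over 9 alternatives, 17 to 22 genes rose in lactation (19 as reported) and 0 fell, save 3 with the range as a covariate, where 4.66% to 15.7% of all genes were called. At involution against lactation 18 to 23 fell (18) and 1 to 5 rose (4), where at most 27.4% of all genes were called. The counts that were also 2-fold were 10 to 13 and 7 to 10 (10 and 7). Leaving out each mouse gave 9 to 11 and 6 to 9 for the 2-fold counts. At involution against nulliparous mice the count of 4 became 2 with the range as a covariate (Srebf1, and Fads2, which was not among the 4), 0 among mice numbered 200 and above and 1 with only the 2 stages compared, and 1 to 6 with a mouse left out. The 2 genes that were also 2-fold became 1 without a filter, with median-ratio scaling, with the range as a covariate and with only the 2 stages, 0 among mice numbered 200 and above, and 1 to 2 with a mouse left out, being 1 without any one of nulliparous mice NUL_1, NUL_4 and NUL_13 or involution mice ID6_209, ID6_216, ID6_218 and ID6_230. The 1 gene past the test of the lactation difference between ranges became 0 with a pseudocount of 0.1. The causes were not tested.

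No called difference changed direction in these alternatives. Of differences that missed the test, several near 0 did, all on the log2 scale. In lactation, among mice numbered 200 and above, Elovl5 was 0.0124, Fads2 -0.0851 and Dgat2 -0.0207, and with a mouse left out Dgat2 ran from -0.00775 to 0.112. At involution against lactation, Elovl3 was 0.44 with the range as a covariate, and with a mouse left out Elovl5 ran from -0.0971 to 0.0661 and Mid1ip1 from -0.19 to 0.00761. At involution against nulliparous mice, median-ratio scaling gave Mlxipl -0.0510, Acly -0.0109, Fasn -0.0825 and Dgat1 -0.0133. The range as a covariate gave Acly -0.14, Fasn -0.13, Elovl2 -0.0915 and Acsl3 -0.0723, and mice numbered 200 and above gave -0.0824, -0.0854, -0.11 and -0.14 for the same genes. With a mouse left out Fasn ran from -0.18 to 0.121, Slc25a1 from -0.0603 to 0.0257, Mlxipl from -0.0467 to 0.176, Aacs from -0.323 to 0.0439, Acly from -0.0429 to 0.214 and Elovl5 from -0.157 to 0.00587.

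TPM holds no depth, so whether a low value such as that of Scd2, Pnpla5 or Elovl3 at 200 and above is limited by reads cannot be said. With each stage in 6 or 7 mice, the spread between mice sets the precision of every value, and differences between involution and nulliparous mice rest partly on the mice numbered under 200, which are in no involution group.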
